A study of Rattus norvegicus with 4 samples.

Results

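The microRNAs (miRNAs) miR-191, miR-425 and miR-423 were followed in small RNA libraries of exosomes from rat adipose tissue and from rat adipose stem cells. They were chosen by the name of their precursor hairpin (rno-mir-191, rno-mir-425 and rno-mir-423), and made up 3 of the 262 named precursor genes with a count, genomic copies summed. Their tags (distinct read sequences, each with its count) gave 6 of the 348 mature forms, a form being all tags on 1 arm of a hairpin. The files call the miR-191 hairpin rno-mir-191a, which RefSeq lists as a synonym of rat Mir191. Levels, fold changes and tag lengths of these miRNAs were known when they were chosen, so their values, and where they fall in the fit across all forms, are a description and not a test.

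Exo-AT were exosomes shed into the medium by minced adipose tissue of SD rats aged 4 weeks, stirred at 100 rpm in a flask with 75 mL of medium for 3 days. Exo-ADSCs were exosomes from adipose stem cells at passage 3, kept for 3 days without serum. Each group had 2 libraries, and tag counts were used from Exo-AT replicates 1 and 2 and from Exo-ADSCs replicate 2. Exo-ADSCs replicate 1 entered through the authors' deposited table alone. Minced tissue holds many cell types, whereas the cultured cells had been grown out over 3 passages. The labels do not say whether the replicates of a group had separate animals or cultures behind them, so their spread may be technical.

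miRNAs are cut in pairs of arms, 5p and 3p, from hairpin transcripts, and 1 arm of a pair is loaded into Argonaute, where bases 2 to 8 (the seed) choose target messages. miR-191 and miR-425 are made from a shared primary transcript of the Dalrd3 gene in mammals, and miR-423 lies in another gene, Nsrp1 in rat. All 3 are found in many tissues, and in assays of human serum, plasma and vesicles miR-191-5p, miR-423 and miR-425-5p have been used as reference miRNAs against which others are scaled.

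The mature sequences are printed here because the tags below differ from them at their ends. They are RefSeq entries of build GRCr8, with the seed in capitals. RefSeq gave mature entries for 5 of the 6 forms, miR-423-3p being named only, and its 3 hairpins were identical to those in the files.
rno-miR-191a-5p: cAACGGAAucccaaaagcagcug
rno-miR-191a-3p: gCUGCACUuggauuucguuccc
rno-miR-425-5p: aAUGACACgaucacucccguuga
rno-miR-425-3p: aUCGGGAAuaucguguccgcc
rno-miR-423-5p: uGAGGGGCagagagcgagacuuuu

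These 5 mature forms have 5 different seeds. Among the other rat mature entries of RefSeq, that of miR-191a-3p is shared with rno-miR-17-2-3p and that of miR-423-5p with rno-miR-3573-5p. In GRCr8, Mir191 lies at chr8:118142627-118142717 and Mir425 at chr8:118143084-118143166, both on the plus strand within Dalrd3 and with 366 bases between them. Mir423 lies at chr10:62412272-62412350 on the minus strand within Nsrp1. The gene table gives spans, so whether a hairpin is exonic or intronic was not read from it. Mir3555, the gene of miR-191b, lies across Mir191 on the opposite strand, but 0 tags were named for miR-191b, and 0 of the 141 rows of member tags were on a second hairpin. All 34 rows of miR-191a-5p tags carried the status R in the alignment, which no count of another member form did. What this status implies for their placement was not tested.

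The tags that carry the differences described below are shown next, as the files spell them. Capitals mark bases at the 5′ end before the first stretch of 12 bases that matches the hairpin. Where no capitals stand, the whole tag matches.
miR-191a-5p, 23 nt: caacggaatcccaaaagcagctg
miR-191a-5p, 17 nt: caacggaatcccaaaag
miR-191a-5p, 26 nt: CATcaacggaatcccaaaagcagctg
miR-425-5p, 25 nt: aatgacacgatcactcccgttgagt
miR-425-5p, 20 nt: aatgacacgatcactcccgt
miR-425-5p, 28 nt: GTAaatgacacgatcactcccgttgagt
miR-423-5p, 21 nt: tgaggggcagagagcgagact
miR-423-5p, 24 nt: CATtgaggggcagagagcgagact
miR-423-3p, 17 nt: agctcggtctgaggccc
miR-423-3p, 23 nt: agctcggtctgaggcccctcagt

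The libraries differed in depth by more than an order of magnitude. Exo-AT replicate 1 had 15200 counts on any hairpin and replicate 2 had 181049, against 715114 for Exo-ADSCs replicate 2. Of these, 9134 and 136024 for Exo-AT and 97204 for Exo-ADSCs were on named miRNAs, the rest being on hairpins that the authors predicted, which took 39.9% and 24.9% of the Exo-AT counts and 86.4% of those of Exo-ADSCs. Each tag has at least 2 reads, so tags read once do not enter these counts. Such tags aside, a form with 0 counts may hold up to 3 counts. On the CPM scale (counts relative to the library's total of named miRNA counts) that is 328 and 22.1 for Exo-AT and 30.9 for Exo-ADSCs. After scaling by edgeR's TMM factors, as for the levels below, it is 237 and 20.4 for Exo-AT and 46.8 for Exo-ADSCs. Both Exo-AT files name their sample alike, as B. The authors' deposited column for Exo-AT replicate 1 followed the tag counts of Exo-AT replicate 2 (within 5% of a constant factor for 35 of 43 miRNAs), and their column for replicate 2 followed the most abundant tags of replicate 1 (27 of 43). The labels of the tag files were kept, and exchanging them within Exo-AT leaves every value of the group unchanged.

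Of the 6 forms, 4 had counts in all 3 libraries and passed the filter on low counts. miR-425-5p was higher and miR-423-5p lower in Exo-AT than in Exo-ADSCs, and miR-191a-5p and miR-423-3p lay closer together across the groups. Levels below are CPM of named miRNA counts scaled by edgeR's TMM factors. Fold changes are log2 ratios of Exo-AT over Exo-ADSCs from edgeR's fit across all 183 forms tested. Their standard error (SE) was derived as the absolute log2 fold change over the square root of the fit's F statistic. In that fit, 2 of the 4 member forms passed an adjusted p of 0.05 (Benjamini-Hochberg over 183), beside 38.3% of all forms tested, 35 higher and 35 lower. Nothing is read from that count, because the members were chosen with this contrast known. In exosome RNA, less of a form per vesicle and fewer vesicles of the cells that make it cannot be told apart.

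miR-425-5p, the main product of the Mir425 hairpin, had 34 and 421 counts for Exo-AT and 41 for Exo-ADSCs. Its level was 2687 and 2864 CPM in Exo-AT replicates 1 and 2, against 639 CPM in Exo-ADSCs replicate 2. Both Exo-AT libraries were close to each other and lay above the Exo-ADSCs library. With 1 library in Exo-ADSCs, many forms would lie to 1 side of it without any difference between the groups. Nothing is read from that order, here or for the forms below. The Exo-AT mean was 2776 ± 125 CPM (SD, n = 2), and the log2 fold change was 2.12 (SE 0.52), past the threshold of the fit, while the median of all forms tested was 0.37. Among named forms it ranked 27 and 26 in Exo-AT and 67 in Exo-ADSCs. Its fold change stayed positive under every scaling, filter and tool tried, and of the settings with a test it missed the threshold in limma alone (log2 fold change 2.16).

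miR-191a-5p, the main product of the neighbouring Mir191 hairpin, had 19 and 280 counts for Exo-AT and 161 for Exo-ADSCs. Its level was 1502 and 1905 CPM in Exo-AT, against 2509 CPM in Exo-ADSCs. Both Exo-AT libraries lay under the Exo-ADSCs library. The Exo-AT mean was 1703 ± 285 CPM (SD, n = 2) and the log2 fold change was -0.53 (SE 0.46), short of the threshold. Within the cluster, miR-191a-5p made up 35.8% and 39.9% of the counts of both 5p forms in Exo-AT (Wilson 95% interval 24.3 to 49.3% and 36.4 to 43.6%), against 79.7% in Exo-ADSCs (73.6 to 84.7%). So miR-425-5p was the larger of the pair in both Exo-AT libraries, and miR-191a-5p in the Exo-ADSCs library. That share needs no scaling between libraries. These intervals cover counting error within a library only, and treat every read as a separate molecule, which was not tested.

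The opposite arms of the cluster were near the limit of detection. miR-425-3p had 4 and 9 counts for Exo-AT and 0 of 97204 for Exo-ADSCs, and it was not tested. miR-191a-3p had 0 counts in both Exo-AT libraries and 2 in that of Exo-ADSCs, all in a tag of 16 nt that runs past the 3′ end of the hairpin and does not hold the seed of the mature form. So the miR-191a-3p mature form itself was not detectable at this depth. The 5p arm took 89.5% and 97.9% of miR-425 counts in Exo-AT and 100% of 41 in Exo-ADSCs. All 13 miR-425-3p counts carried a difference from the hairpin of the reference, A11G in tags of 22 or 23 nt that start a base before the mature form, and A10G in a tag that starts with it, positions counted from the 5′ end of the tag and the hairpin's base first. These are the same hairpin base.
miR-425-3p, A11G: catcgggaatGtcgtgtccgcc
miR-425-3p, A10G: atcgggaatGtcgtgtccgccc

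In these tags the capital is the base that differs. The Exo-AT counts of miR-425-3p lay in 2 tags in replicate 1 and 3 tags in replicate 2, with no tag that matches the hairpin throughout.

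miR-423 gave both of its arms in quantity. miR-423-5p had 7 and 88 counts for Exo-AT and 147 for Exo-ADSCs, and its level was 553 and 599 CPM in Exo-AT, against 2291 CPM in Exo-ADSCs. Both Exo-AT libraries were under that of Exo-ADSCs. The Exo-AT mean was 576 ± 32.0 CPM (SD, n = 2), with a log2 fold change of -1.97 (SE 0.56), past the threshold of the fit. It missed the threshold with named totals, limma, tags free of mismatches and indels, no tags with added 5′ bases, and the most abundant tag alone (log2 fold changes of -1.95 to -0.73), and its direction turned with totals over all hairpins (1.21). Exo-AT replicate 1 rests here on 7 counts.

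miR-423-3p, the opposite arm, had 32 and 382 counts for Exo-AT and 286 for Exo-ADSCs. Its level was 2529 and 2598 CPM in Exo-AT, against 4457 CPM in Exo-ADSCs. The Exo-AT libraries were nearly equal, and both lay under the Exo-ADSCs library. The mean was 2564 ± 48.8 CPM in Exo-AT (SD, n = 2), with a log2 fold change of -0.79 (SE 0.38), short of the threshold. Of both arms together, miR-423-3p took 82.1% and 81.3% in Exo-AT (67.3 to 91.0% and 77.5 to 84.5%), against 66.1% in Exo-ADSCs (61.5 to 70.4%). The 3p arm was the larger in every library, with a share in Exo-ADSCs below that of Exo-AT replicate 2 (their intervals are apart), while the interval of Exo-AT replicate 1 overlaps with that of Exo-ADSCs.

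Ordered by level, miR-425-5p and miR-423-3p led in Exo-AT, their values (2687 and 2864 CPM against 2529 and 2598 CPM) differing by no more than a few counts in replicate 1. miR-191a-5p followed, and miR-423-5p was the lowest of the 4 in both libraries. In Exo-ADSCs miR-423-3p was the highest at 4457 CPM, miR-191a-5p and miR-423-5p were close at 2509 and 2291 CPM, and miR-425-5p was last at 639 CPM. In counts the close pair of Exo-ADSCs is 161 and 147, which counting error does not separate.

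**Figure D1:**
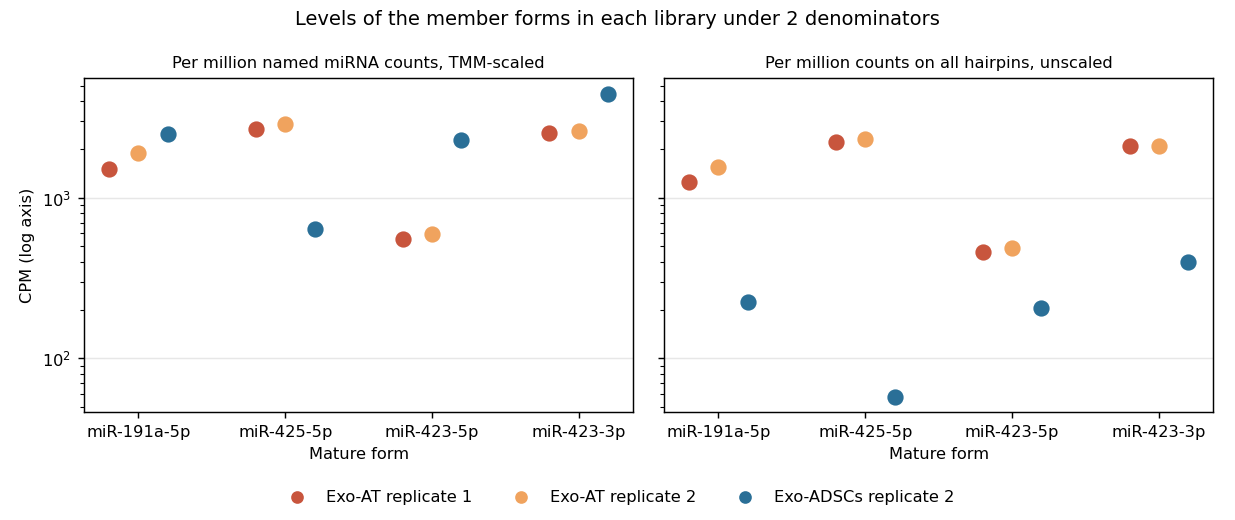
Level of each form in each library on a log axis, as CPM of named miRNA counts with TMM scaling (left) and as CPM of counts on all hairpins (right); each point is 1 library, Exo-AT in red and orange and Exo-ADSCs in blue. On the left miR-425-5p is higher in Exo-AT (2687 and 2864 against 639 CPM) and the other 3 forms are lower, whereas on the right all 4 forms are higher in both Exo-AT libraries.

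The denominator set the direction of 3 of these 4 forms. As CPM of the counts on all hairpins, predicted ones included, miR-191a-5p was 1250 and 1547 in Exo-AT, against 225 in Exo-ADSCs. On the same scale miR-425-5p was 2237 and 2325 in Exo-AT, against 57.3 in Exo-ADSCs. miR-423-5p was 461 and 486 in Exo-AT, against 206 in Exo-ADSCs, and miR-423-3p was 2105 and 2110, against 400.
All 4 forms were then higher in Exo-AT, with fitted log2 fold changes of 2.66 for miR-191a-5p, 5.31 for miR-425-5p, 1.21 for miR-423-5p and 2.40 for miR-423-3p. The median of all 183 forms was 3.55 on that scale, so relative to it miR-425-5p lay above and the other 3 below, as under TMM. With plain totals of named miRNAs the median was 1.21, and the log2 fold changes were 0.32 for miR-191a-5p, 2.99 for miR-425-5p, -1.14 for miR-423-5p and 0.072 for miR-423-3p.

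The authors' deposited table of 45 miRNAs raised in Exo-AT held miR-191a-5p and no other member. In it, miR-191a-5p had normalized reads of 1524 and 811 in Exo-AT and 302 and 225 in Exo-ADSCs, with a deposited fold of 4.31, rank 40 of 45. The lower Exo-AT value there was still above the higher Exo-ADSCs value, a direction that miR-191a-5p had on the all-hairpin scale and not with TMM. In the authors' deposited table, 1 count of miR-191a-5p was worth 5.44 in the first Exo-AT column, read against Exo-AT replicate 2, and 1.40 in the second Exo-ADSCs column, read against Exo-ADSCs replicate 2. On the CPM scale of all hairpins 1 count is worth 5.52 and 1.40, and on that of named miRNA counts 7.35 and 10.3. The second Exo-AT value of the authors' deposited table, 811, was 62.4 per count of the most abundant tag alone in Exo-AT replicate 1, which had 13 of the 19 counts. The same 811 is also 5.44 per count of that tag in Exo-AT replicate 2, which had 149, so for this miRNA alone the library behind the value is not settled. By either reading it followed 1 tag of the form, whereas the first Exo-AT value followed the sum of all tags.

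The tags of each form differed in length between the groups, in different ways for different forms. miR-191a-5p in Exo-AT had no tag shorter than 21 nt. Its 23-nt tag, the mature sequence, had 13 of 19 and 149 of 280 counts in Exo-AT, against 27 of 161 in Exo-ADSCs. The 17-nt tag, which lacks the last 6 bases, had 0 counts in both Exo-AT libraries and 42 in that of Exo-ADSCs, where it was the most abundant. Tags of up to 18 nt were 0% of both Exo-AT libraries (up to 16.8% and 1.35% by the interval), against 45 of 161 counts in Exo-ADSCs (interval 21.6 to 35.3%).

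miR-423-3p had short tags in every library. Tags of up to 18 nt were 37.5% and 56.5% in Exo-AT (22.9 to 54.7% and 51.5 to 61.4%), against 83.9% in Exo-ADSCs (79.2 to 87.7%). The 17-nt tag had 0 and 53 counts for Exo-AT and 113 for Exo-ADSCs, and the 23-nt tag had 7 and 41 for Exo-AT and 9 for Exo-ADSCs. The mean length was 19.8 and 18.5 nt in Exo-AT, against 17.5 nt in Exo-ADSCs. Both Exo-AT libraries thus had longer miR-423-3p tags than Exo-ADSCs, as they did for miR-191a-5p, with means of 22.9 and 22.8 nt against 21.3 nt.

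The other 2 forms went the other way. miR-425-5p tags averaged 20.6 and 22.2 nt in Exo-AT, against 25.2 nt in Exo-ADSCs, and miR-423-5p tags 19.6 and 20.6 nt, against 22.0 nt. Tags of up to 18 nt were 23.5% and 7.84% of miR-425-5p in Exo-AT, against 0 of 41 counts in Exo-ADSCs. For miR-423-5p they were 28.6% and 9.09% in Exo-AT, against 4.08% in Exo-ADSCs. Over all members, tags of up to 18 nt took 22.9% and 21.8% in Exo-AT and 46.0% in Exo-ADSCs, beside 14.6% and 11.2% in Exo-AT and 46.4% in Exo-ADSCs over the other named miRNAs.

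**Figure D2:**
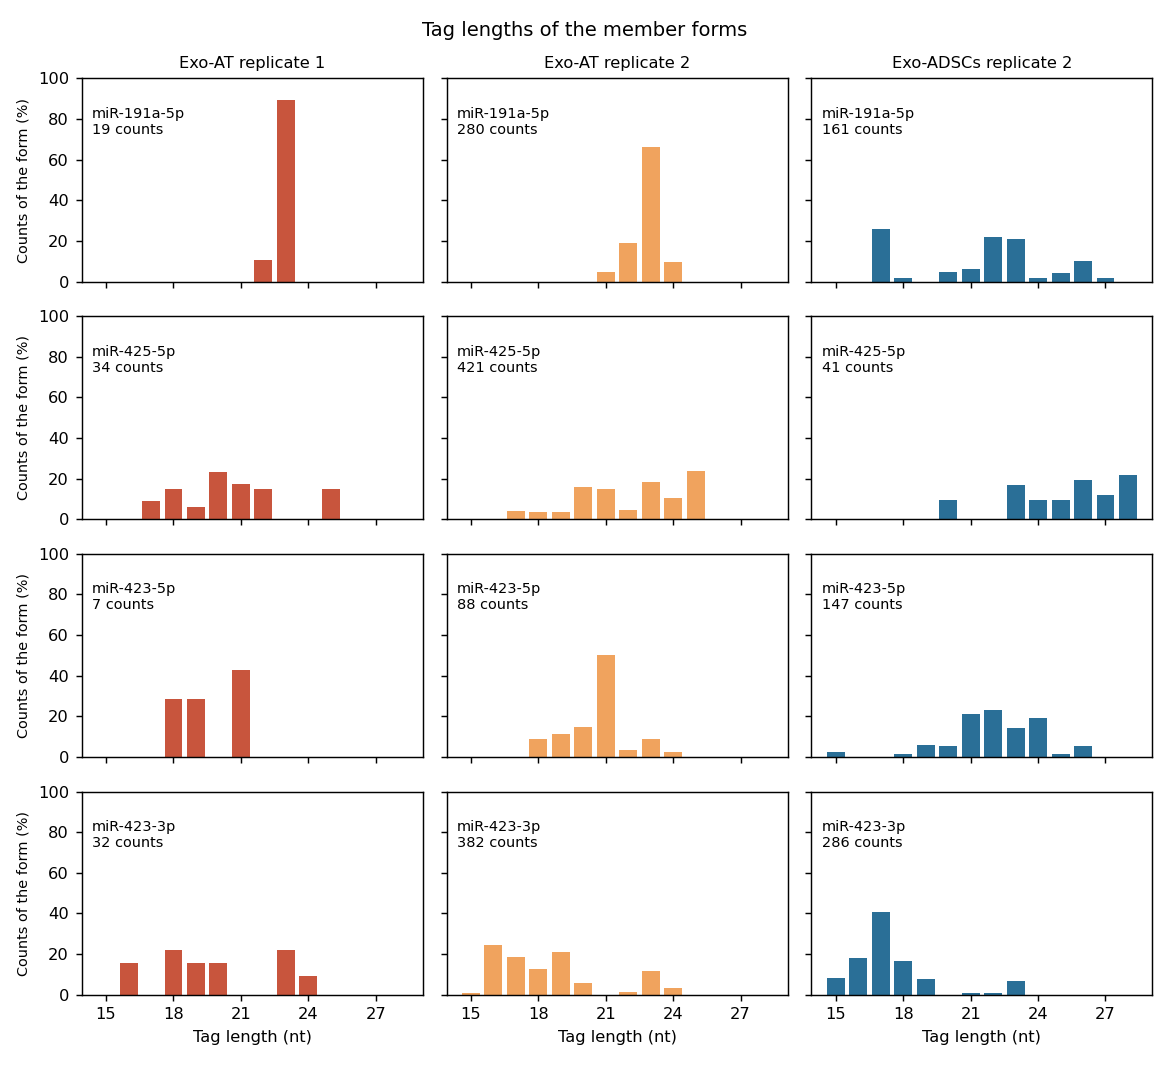
Share of each form's counts (%, vertical) at each tag length (nt, horizontal), with a column for each library and a row for each form; the number of counts behind each panel is printed in it. miR-191a-5p peaks at 23 nt in both Exo-AT libraries and has a second peak at 17 nt in Exo-ADSCs, and miR-425-5p reaches 28 nt in Exo-ADSCs alone.

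The share of each miR-423 arm differed with the lengths counted. Counting tags of 20 to 25 nt only, miR-423-3p took 83.3% and 54.8% of both arms in Exo-AT, against 16.2% in Exo-ADSCs. On such tags the 5p arm was the larger in Exo-ADSCs, whereas over all lengths the 3p arm was. With that length range the log2 fold change of miR-423-3p was 0.29, in place of -0.79 with all lengths, and that of miR-423-5p was -3.13.

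The longer tags of Exo-ADSCs had bases at their 5′ end before the first stretch of 12 bases that matches the hairpin. Tags with at least 3 such bases were 30 of the 41 counts of miR-425-5p in Exo-ADSCs, or 73.2% (58.1 to 84.3%), and 0 of 34 and 0 of 421 in Exo-AT. For miR-423-5p they were 64 of 147 counts, 43.5% (35.8 to 51.6%), in Exo-ADSCs, and 0 of 7 and 0 of 88 in Exo-AT. For miR-191a-5p they were 26 of 161, 16.1% (11.3 to 22.6%), in Exo-ADSCs, and 0 of 19 and 0 of 280 in Exo-AT.
miR-423-3p had 3 of 286 counts, 1.05%, in Exo-ADSCs, and 0 of 32 and 0 of 382 in Exo-AT. These 3 forms of the 5p arm thus carried such bases in the Exo-ADSCs library far more than miR-423-3p did. Whether that goes with the arm was not tested. No Exo-AT library held such a tag of any member.

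The added bases were few in kind. All 30 counts of miR-425-5p began with GTA, as in the 28-nt tag above with 9 counts. A further 7 had GT before the matched part, which left 4 of 41 counts with none. The matched part of those 7 starts with A, so they too are spelled GTA at their start. Whether that A belongs to the hairpin or to the added bases cannot be told from the tag. miR-423-5p had CAT in 59 counts, ACG in 3 and CACG in 2, the 24-nt tag above holding 28 of them. miR-191a-5p had CAT in 22 counts and ACG in 4, and the 26-nt tag above held 16. The alignment wrote GTA of miR-425-5p as a G of the hairpin with TA inserted (2+TA). It wrote CAT of miR-423-5p as a C of the hairpin with AT inserted (2+AT). By the alignment these tags thus hold 2 added bases, and the 3 counted here come from the first stretch of 12 matching bases. For CAT of miR-191a-5p the alignment also wrote 3 inserted bases (3+TCA).
Once the bases before the matched part were taken off, miR-425-5p averaged 22.6 nt and miR-423-5p 20.7 nt in Exo-ADSCs. Treated likewise, miR-425-5p averaged 20.6 and 22.1 nt and miR-423-5p 19.6 and 20.5 nt in Exo-AT replicates 1 and 2, so the Exo-ADSCs means stayed above both, by less over replicate 2. Among the 73 forms with at least 30 counts in Exo-ADSCs, miR-425-5p had the highest share of such tags, miR-423-5p was next, miR-191a-5p ranked 10 and miR-423-3p 34, with a median of 1.03%. The members together had 19.3% such counts in Exo-ADSCs, beside 2.64% over the other named miRNAs, whose share in Exo-AT was 0.31% and 0.28%.

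**Figure D3:**
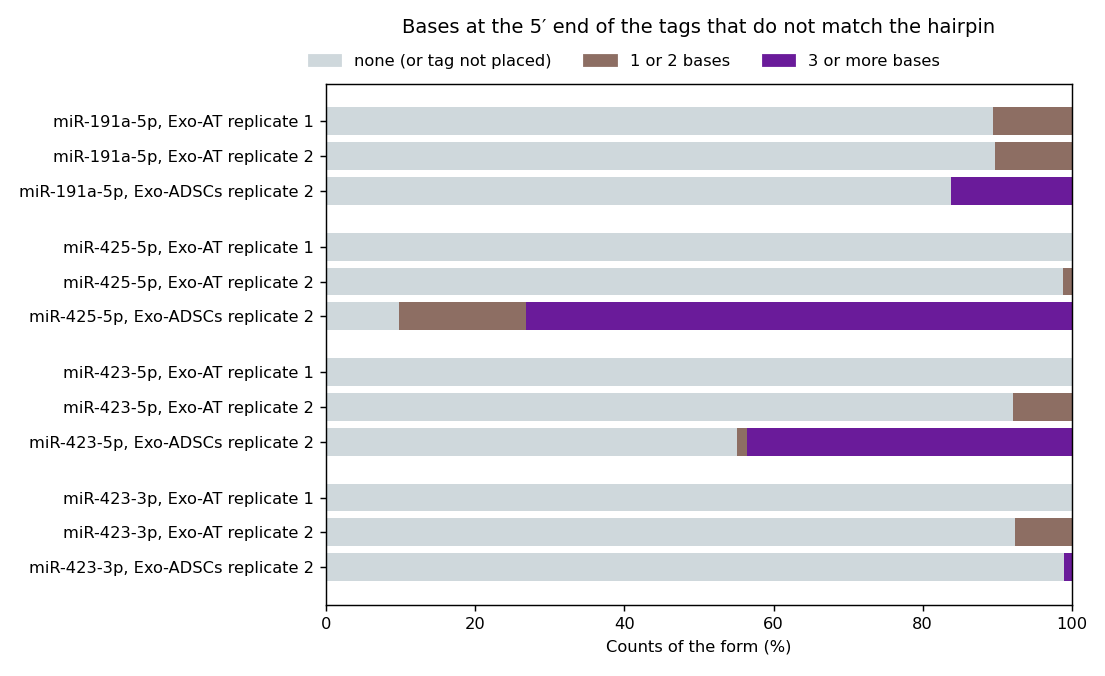
Share of each form's counts (%, horizontal) by the number of 5′ bases before the first stretch of 12 bases that matches the hairpin, with a bar for each form and library. Tags with 3 or more such bases (purple) appear in the Exo-ADSCs library alone, at 73.2% of miR-425-5p, 43.5% of miR-423-5p, 16.1% of miR-191a-5p and 1.05% of miR-423-3p.

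Whether the added bases belonged to the RNA or came with the making of the library was not tested, so tag lengths and the position of the seed are those of the tags as deposited. Counted so, the tags with added bases hold the seed out of place. The miR-425-5p seed stood at bases 2 to 8 of the tag in 34 of 34 and 394 of 421 counts in Exo-AT, against 4 of 41 in Exo-ADSCs (9.76%, 3.86 to 22.5%). For miR-423-5p it did in 7 of 7 and 78 of 88 counts in Exo-AT, against 77 of 147 in Exo-ADSCs (52.4%). For miR-191a-5p the counts were 17 of 19 and 246 of 280 in Exo-AT, against 123 of 161 in Exo-ADSCs (76.4%). In all 3 forms the share was lowest in Exo-ADSCs, with intervals apart from Exo-AT replicate 2.

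Leaving such tags out changed the comparison of levels. Without them miR-423-5p had a log2 fold change of -1.17 and no longer passed the threshold of edgeR's fit, while that of miR-425-5p was 3.98. The share of miR-423-3p in both arms became 77.3% in Exo-ADSCs, beside the same 82.1% and 81.3% in Exo-AT, so most of the difference between the groups in that share went with these tags. The share of miR-191a-5p within the cluster became 92.5% in Exo-ADSCs, beside 35.8% and 39.9% in Exo-AT, the difference being wider. In Exo-ADSCs miR-425-5p then rests on 11 counts.

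The share of all forms tested that passed the threshold moved with the setting too, so the members' calls stand beside different backgrounds. It was 38.3% with TMM, 29% with RLE size factors, 35.5% with named totals and 62.3% with totals over all hairpins. It was 15.8% with no filter, 26.8% with DESeq2 and 14.8% with limma. With tags restricted it was 45.4% for 20 to 25 nt, 44.2% for tags free of mismatches and indels, 39.2% for tags on 1 hairpin, 41.3% without the tags with added bases and 46.8% for the most abundant tag of each form.

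**Figure D4:**
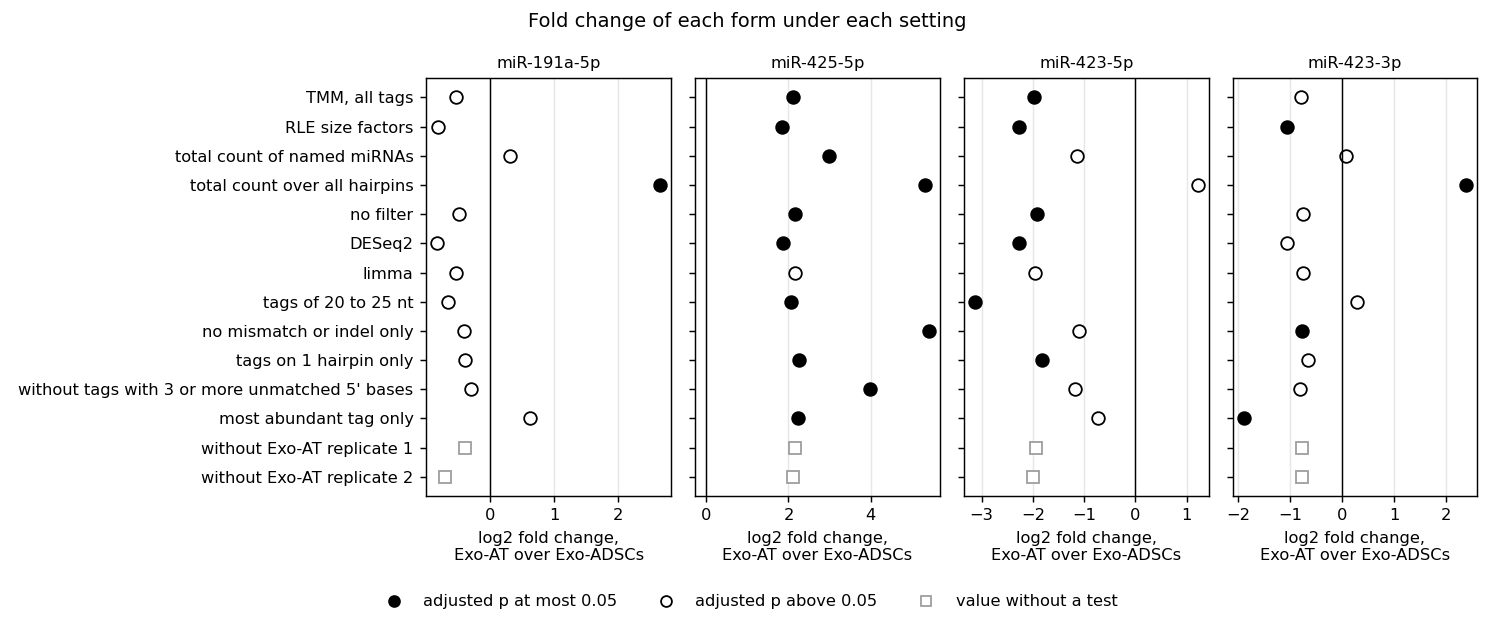
Log2 fold change of each form (Exo-AT over Exo-ADSCs, horizontal) under each setting (rows); filled circles passed an adjusted p of 0.05 in that fit, open circles did not, and grey squares have no test. miR-425-5p lies right of 0 in every row, from 1.85 to 5.41, and the other 3 forms change side with the denominator, where miR-423-5p is -1.97 with TMM and 1.21 with the total over all hairpins.

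Single changed bases near the ends of tags were found in both groups. For miR-191a-5p, tags changed at their first or second base were 2 of 19 and 29 of 280 counts in Exo-AT (10.5% and 10.4%), against 0 of 161 in Exo-ADSCs. The most abundant of these tags was the 23-nt tag with C1A, with 2 and 16 counts for Exo-AT and 0 for Exo-ADSCs. For miR-423-3p such tags were 0 of 32 and 29 of 382 counts in Exo-AT (7.59% in replicate 2), against 0 of 286 in Exo-ADSCs. For miR-423-5p they were 0 of 7 and 7 of 88, against 0 of 147. Each of these miR-423-3p tags held 2 to 8 counts in Exo-AT replicate 2. Replicate 1 is far shallower and tags read once are missing, so its 0 counts here do not show that such tags were absent. For miR-425-5p such tags were 0 of 34 and 5 of 421 counts in Exo-AT (1.19% in replicate 2), against 7 of 41 in Exo-ADSCs (17.1%). Those 7 are the tags with GT before the matched part, which the alignment wrote as G2T. They are spelled GTA at their start, like the tags with added bases, so a changed base cannot be told apart from added ones. Their share is thus not set against those of the other forms.
At the 3′ end, miR-191a-5p tags with a changed last base were 2 of 19 and 21 of 280 counts in Exo-AT, against 11 of 161 in Exo-ADSCs (10.5% and 7.50%, against 6.83%). The intervals of the 3 libraries overlapped. For miR-425-5p the most abundant changed tag was A23T, with 0 and 28 counts for Exo-AT and 0 for Exo-ADSCs.

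The forms nearest in pattern were those with the smallest distance in centred log2(CPM + 1) over the 3 libraries, among 48 forms with at least 10 counts in each. For miR-425-5p it was miR-25-3p, a miRNA of the miR-92 seed family, at 10197 and 10060 CPM for Exo-AT and 2213 CPM for Exo-ADSCs, followed by miR-30a-5p and miR-101a-3p. For miR-191a-5p they were miR-101b-3p, miR-152-3p and miR-10a-5p, and for miR-423-3p let-7f-5p, miR-152-3p and miR-21-5p. With 3 libraries, many forms lie near any pattern, and the distances (0.10 to 0.17) are a description.

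Other miRNAs that are often used as references in human serum, plasma and vesicle assays moved both ways. Of a list of 12, 11 entered the fit, which put 3 higher and 4 lower in Exo-AT. Of all forms tested, 19.1% were called higher and 19.1% lower. The median log2 fold change of the list was -0.33, beside 0.37 for all forms tested. miR-26a-5p was 6561 and 8822 CPM in Exo-AT, against 1371 CPM in Exo-ADSCs. miR-24-3p was 790 and 463 CPM in Exo-AT, against 19480 CPM in Exo-ADSCs. let-7i-5p was closer, at 4664 and 5591 CPM in Exo-AT, against 6483 CPM in Exo-ADSCs.
The other members called were miR-16-5p and miR-25-3p, higher, and miR-103-3p, miR-107-3p and miR-320-3p, lower. The 5p form of miR-484, the one listed, had no count in any library. Its 3p form had 0 and 2 counts for Exo-AT and 5 for Exo-ADSCs. Also short of the threshold, besides let-7i-5p, were miR-93-5p, miR-30c-5p and miR-152-3p, which does not show that they were equal between the groups.

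The labelled sources could be checked against miRNAs alone, since the files hold no messenger RNA. Summed over lists of marker miRNAs, endothelial miR-126a was 2767 and 4721 CPM in Exo-AT, against 499 CPM in Exo-ADSCs, and muscle miRNAs were 1423 and 1360 CPM, against 265 CPM. Leukocyte miRNAs were 474 and 973 CPM in Exo-AT, with 3 and 4 of 4 detected, against 234 CPM in Exo-ADSCs, where miR-142-3p, miR-150-5p and miR-155-5p were at 0. In Exo-AT replicate 1 each of the 3 detected rested on 2 counts. The remaining member, miR-142-5p, was 158 and 238 CPM in Exo-AT, against 234 CPM in Exo-ADSCs.
The erythroid list was 36834 and 154497 CPM in Exo-AT, against 50789 CPM in Exo-ADSCs, nearly all of it miR-486-5p, with 2, 3 and 3 of 4 detected in these libraries and miR-144-5p at 0 in all. The list for platelets and megakaryocytes held miR-223-3p alone, at 0 and 47.6 CPM for Exo-AT and 0 CPM for Exo-ADSCs. That value of Exo-AT replicate 2 rests on 7 counts, and whether it came from platelets was not tested. The muscle sum is mostly miR-1b-3p, at 1423 and 1204 CPM in Exo-AT, against 46.8 CPM in Exo-ADSCs. Of its other members, miR-206-3p was 0 and 13.6 CPM in Exo-AT, against 187 CPM in Exo-ADSCs, and miR-133a-3p was 0 and 143 CPM, against 31.2 CPM. The summed endothelial and muscle lists were thus higher in both Exo-AT libraries, with 1 muscle member the other way, and the erythroid sum overlapped between groups. Their part in the levels of miR-191, miR-425 and miR-423 was not tested.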

How the data were processed

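Samples were grouped by their titles. Tag files hold whole-number counts per distinct tag and hairpin, per the file headers, with at least 2 reads per tag. Novoalign 2.07.11 and rn6 are named per the submitters' processing notes. Trimming is not given in the sources used here. The normalized reads of the authors' deposited table are treated as a score, and its fold as a ratio, both made by the authors. The file of Exo-ADSCs replicate 1, a summary by class of read count in units of its own and percent, as deposited by the authors, was not used.

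Counts of named hairpins were summed by arm (tag midpoint before or after the hairpin's). edgeR 4.0.16 (quasi-likelihood, two-sided, TMM; default filter, minimum count 10, minimum total 15) was fitted to 183 forms, with Benjamini-Hochberg adjustment at 0.05 and the scripts tested on simulated data. With 1 Exo-ADSCs library, its spread is assumed to equal that of Exo-AT. Alternatives used DESeq2 1.42.0, limma 3.58.1 on log2(CPM + 1), other totals and tag filters. Intervals are Wilson 95%. A substitution was read from the alignment column. The members, lists and named-form rule (every member form; per form the most abundant tags; per member the 3 nearest forms) were chosen with earlier results of these data known.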

Additional observations from a re-analysis of the deposited data

How the results depend on the processing

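The fit rests on 3 libraries, 1 of them Exo-ADSCs, and the shallowest holds 9134 named counts. No paired analysis was possible because the groups share only replicate number 2 among libraries with tag counts. Leaving out an Exo-AT library gives fold changes without a test: -0.70 to -0.40 (log2) for miR-191a-5p, -0.78 in either case for miR-423-3p, -2.01 to -1.93 for miR-423-5p and 2.11 to 2.16 for miR-425-5p.

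Calls of 35 higher and 35 lower became 23 higher with RLE size factors, 19 lower with totals of named miRNAs, 12 higher and 15 lower with limma, and 109 higher and 5 lower with totals over all hairpins, the last added after seeing the data. miR-191a-5p (-0.53) turned to 0.32 with named totals, 2.66 with all-hairpin totals and 0.62 with each form's most abundant tag alone. miR-423-3p (-0.79) turned to 0.072 with named totals, 2.40 with all-hairpin totals and 0.29 with tags of 20 to 25 nt, and passed the threshold with RLE (-1.07), with tags free of mismatches and indels (-0.78) and with the most abundant tag (-1.90). miR-423-5p (-1.97) turned to 1.21 with all-hairpin totals and missed the threshold with named totals (-1.14), limma (-1.95), tags free of mismatches and indels (-1.11), no tags with 3 or more unmatched 5′ bases (-1.17) and the most abundant tag (-0.73). miR-425-5p (2.12) missed it with limma (2.16). Over tags free of mismatches and indels, 59.7% of member counts in Exo-ADSCs were up to 18 nt long, in place of 46.0%, since that setting removes the longer tags with added bases. The all-hairpin and named totals shift every form by construction, and for the others the cause was not tested. The settings without such tags and with the most abundant tag were chosen after seeing the data.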

Other observations

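The 5′ bases before the stretch that matches the hairpin were not limited to miR-191, miR-425 and miR-423. In Exo-ADSCs, CAT stood before the matched part in 81 member counts and in 1188 counts of other named miRNAs, GTA in 30 and 148, and ACG in 10 and 290. In both Exo-AT libraries none of these 3 stood there in any named miRNA. After miR-425-5p and miR-423-5p, the highest shares in Exo-ADSCs among forms with at least 30 counts were those of let-7b-5p (30.2%), miR-486-5p (29.6%) and miR-30d-5p (28.9%). Of the 100 distinct member tags, 10 were found in all 3 libraries.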
